A study of Homo sapiens with 14 samples.

Results

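SMAD3, SMAD6, SMAD7, SKIL, SKI, ID1, ID2, ID3 and TGIF1 are genes of the transforming growth factor beta (TGF-beta) and bone morphogenetic protein (BMP) pathways that encode a signal transducer, feedback inhibitors, co-repressors and target factors. They were chosen by name from the count table, 9 of 58780 genes, with earlier results of these data known. All 9 were among the 21910 genes with enough reads to be tested. Nascent transcription of these genes was read in 14 precision run-on sequencing (PRO-seq) libraries of A549, a human lung adenocarcinoma cell line. In PRO-seq, permeabilised cells let engaged RNA polymerases add labelled nucleotides to the RNA they are making, so the reads report ongoing transcription and not the standing pool of mRNA. The 7 groups had 2 libraries each.

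Untreated cells were kept in 0.01% DMSO with a label of 15 min. Other cells were given GSK591, an inhibitor of the type II arginine methyltransferase PRMT5, at 1 µM or MS023, an inhibitor of type I arginine methyltransferases, at 1 µM for 15 min. In 2 further groups GSK591 or MS023 was given together with 100 nM dexamethasone (Dex), a synthetic glucocorticoid, for 15 min, and in the last 2 groups GSK591 or MS023 was given alone for 3 h. All groups shared 0.01% DMSO and the A549 line. Dex alone and a 3 h control are not analysed here. At 3 h, inhibitor and time therefore cannot be told apart, and an effect of Dex is always an effect beside an inhibitor. The labels do not say whether the libraries of a group came from separate cultures, so p-values measure only the spread between these libraries.

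TGF-beta ligands bind receptor kinases that phosphorylate SMAD3 and its close relative SMAD2, and BMP ligands act through SMAD1, SMAD5 and SMAD9. The activated SMADs join SMAD4 and act on chromatin, where they switch on, among others, the genes of their own inhibitors. SMAD7 blocks the receptors of both branches and SMAD6 mainly those of the BMP branch, while SKI, SKIL (also called SnoN) and TGIF1 act in the nucleus as co-repressors bound to SMAD complexes. ID1, ID2 and ID3 are BMP targets whose proteins hold E proteins such as TCF3 and TCF12 off the DNA. In lung epithelial cells the pathway is known for growth arrest and for the epithelial to mesenchymal transition.

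The libraries held between 5768312 counts (MS023 15 min, replicate 2) and 9606938 counts, of which 39.8% to 58% fell on mitochondrial genes. The lowest mitochondrial share was in the same MS023 15 min library and the highest in replicate 2 of GSK591 with Dex. Levels are therefore given as CPM (read counts scaled to a common library size) on library sizes adjusted by TMM (trimmed mean of M values), and other scalings are named below where they end a call. Replicates correlated at r = 0.96 to 0.981 across genes (log2 CPM), and GSK591 with Dex had the most unlike pair. All 9 listed markers of the A549 epithelium were counted (summed level 971.5 to 1369 CPM), EPCAM and CDH1 with 35 counts or fewer per library. Against this, 5 fibroblast markers summed to 5.65 to 9.11 CPM, 4 endothelial markers to 0.236 to 1.84 CPM and 5 blood markers to 2.63 to 4.39 CPM, with CD3E at 0 counts in all 14. Of the 5 alveolar type 2 markers (summed level 14.2 to 19.5 CPM) SFTPB carried most, and SFTPA1, NKX2-1 and LAMP3 had at most 3 counts in any library. PER1, a glucocorticoid target, was at 91.2 CPM or more in the 4 libraries with Dex and at 39.2 CPM or less in the 10 without, so the Dex labels matched the data.

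Among the 9 genes, counts per library ran from 84 (SKI) to 3019 (ID1). Lengths differ between the genes, so levels are compared as CPM per kb of exon. Across 13314 protein-coding genes with introns the counts rose with exon length (log2 slope 0.94 ± 0.02 SE). They did not rise with gene span at a given exon length (slope -0.37 ± 0.01 SE), which is how counts taken within exons behave. The feature type counted is not given in the sources used here. Counting within exons, without reads in introns, was therefore assumed for these levels. In untreated cells the order by level per kb was ID1 (240.3 CPM per kb), ID3 (131 CPM per kb), ID2 (55.8 CPM per kb), TGIF1 (39.0 CPM per kb), SMAD6 (29.1 CPM per kb), SMAD3 (18.6 CPM per kb), SMAD7 (9.22 CPM per kb), SKIL (4.40 CPM per kb) and SKI (3.26 CPM per kb). This order rests on the division by exon length, which is 1233 bases in ID1 and 8222 bases in TGIF1. In CPM alone TGIF1 was highest in untreated cells (321 CPM), above ID1 (296 CPM), and ID2 (123 CPM) lay below SMAD6 (249 CPM). Per kb the BMP target genes ID1, ID3 and ID2 lay highest and the co-repressor genes SKIL and SKI lowest, with the co-repressor gene TGIF1 between. Each neighbouring pair in that order had separate libraries in 7 of 7 groups, apart from SMAD6 over SMAD3 (6 of 7, overlapping in GSK591 with Dex) and SKIL over SKI (5 of 7, overlapping in both 3 h groups).

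**Figure D1:**
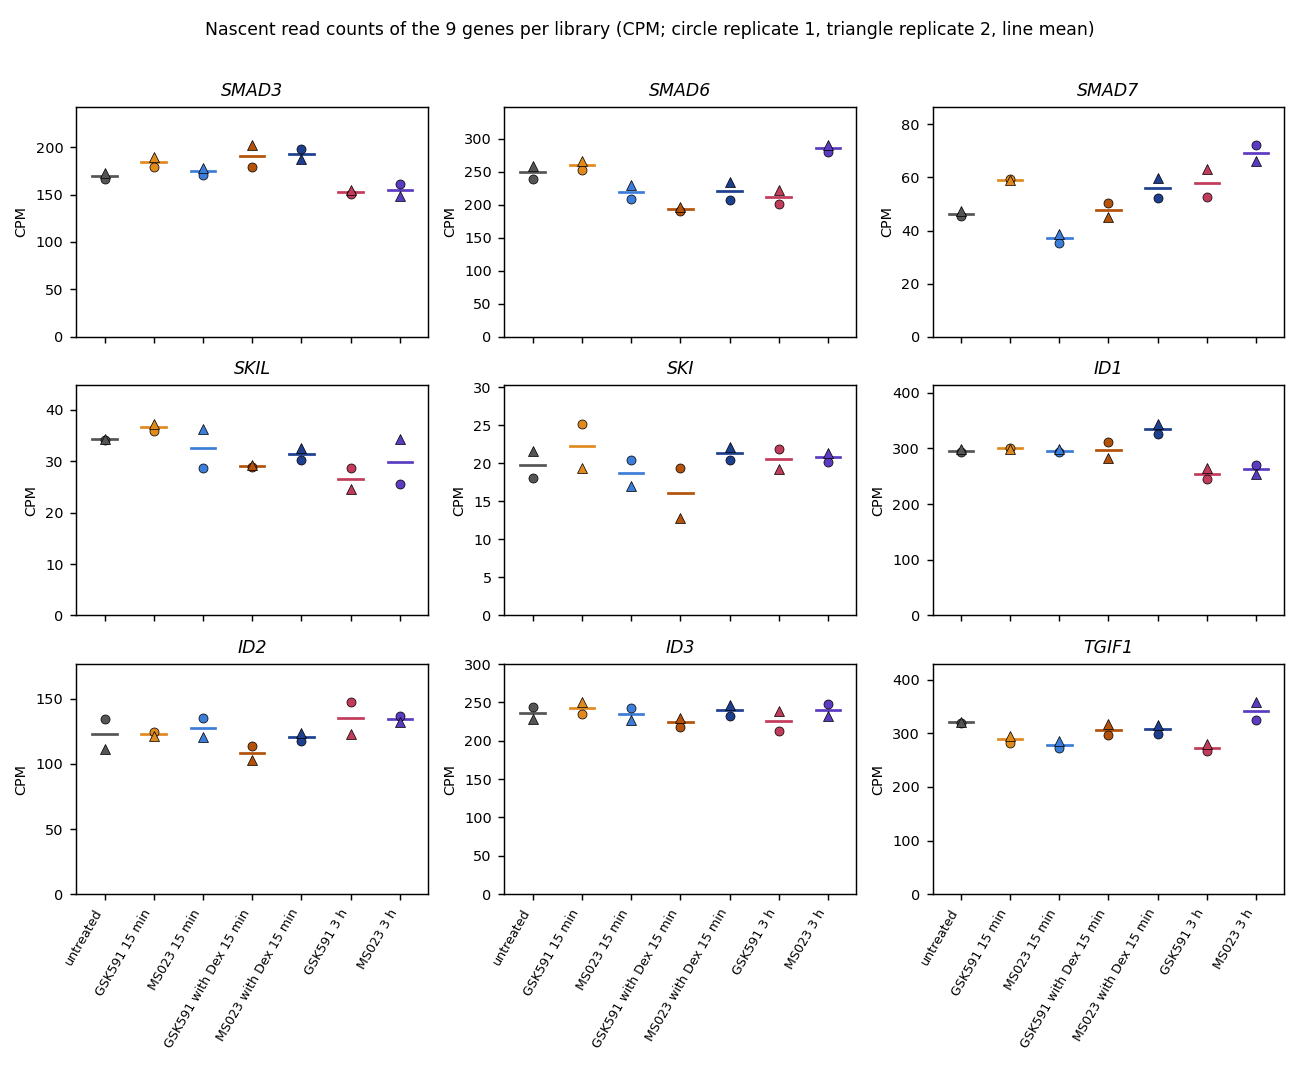
Level of each gene in every library, in CPM on a linear axis from 0, by group; circles are replicate 1, triangles replicate 2 and lines group means. SMAD7 ran from 35.5 to 72.3 CPM and SMAD6 from 190 to 291 CPM, while the group means of ID3 stayed between 224 and 243 CPM.

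SMAD7, the inhibitory SMAD of both branches, moved most. Its lowest levels were in MS023 at 15 min and its highest in MS023 at 3 h, 1.87 times as high, and the level with MS023 also rose when Dex was present. Of the 13 comparisons planned between groups, SMAD7 passed the threshold (edgeR, Benjamini-Hochberg adjusted p under 0.05 over all genes tested) in 6. SMAD7 (ENSG00000101665.9) lies on the minus strand of GRCh38 chromosome 18, from 48919853 to 48952052, and 5033 of its 32200 bases are exonic. Its level was 45.5 and 47.3 CPM in untreated cells, 59.6 and 58.9 CPM with GSK591 at 15 min, and 35.5 and 38.6 CPM with MS023 at 15 min. With Dex it was 50.2 and 45.1 CPM beside GSK591 and 52.4 and 59.95 CPM beside MS023. At 3 h it was 52.5 and 63.1 CPM with GSK591 and 72.3 and 66.1 CPM with MS023. The untreated pair thus lay between the 2 inhibitors at 15 min without touching either, and both MS023 3 h libraries lay above every other library. In such bulk libraries, fewer cells transcribing a gene and less transcription per cell cannot be told apart.

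The bases upstream of 2 of the 3 RefSeq starts of SMAD7 (assembly GRCh38.p14) are shown because this gene and SMAD6 carried most of the calls. Windows are the 250 bases before the start, 5′ to 3′ on the gene's strand, with matches in capitals to any of 5 motifs searched on both strands. These were CAGAC, a SMAD-binding core (in 38.0% of the 35116 windows of all genes), the palindrome GTCTAGAC bound by SMAD3 and SMAD4 (0.182%), GGCGCC (16.4%), the cyclic AMP response palindrome TGACGTCA (1.65%) and the TATA core TATAAA (10.7%). Overlapping matches are all marked, and a match is only a match of letters.
SMAD7 start 1, chr18:48950966-48951215, minus strand: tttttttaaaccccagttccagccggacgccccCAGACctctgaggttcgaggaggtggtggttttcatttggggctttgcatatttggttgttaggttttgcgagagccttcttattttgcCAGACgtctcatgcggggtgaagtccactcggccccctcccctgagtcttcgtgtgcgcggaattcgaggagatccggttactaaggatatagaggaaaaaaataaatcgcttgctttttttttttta
SMAD7 start 2, chr18:48949334-48949583, minus strand: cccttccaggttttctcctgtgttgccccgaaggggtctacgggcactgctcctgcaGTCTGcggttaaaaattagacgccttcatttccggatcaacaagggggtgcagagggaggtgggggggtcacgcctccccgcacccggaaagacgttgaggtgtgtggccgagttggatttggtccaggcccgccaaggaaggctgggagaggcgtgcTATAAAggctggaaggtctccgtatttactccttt
Start 1 has CAGAC beginning 217 and 128 bases before the start, and start 2 has CAGAC on the opposite strand (GTCTG as printed) and TATAAA beginning 35 bases before the start.

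At 15 min none of the 9 genes passed the threshold against untreated cells with either inhibitor alone. Few genes of any kind were called (0.306% of those tested with GSK591 and 0.183% with MS023). For SMAD7 the values stood on opposite sides of untreated cells, with a log2 fold change of 0.35 (95% interval 0.14 to 0.57, edgeR adjusted p = 0.23) with GSK591 and -0.33 (-0.56 to -0.10, adjusted p = 0.36) with MS023. Unadjusted edgeR p was under 0.05 for 1 of the 9 genes with GSK591 (6.85% of all genes) and for 2 with MS023 (8.08% of all genes). DESeq2 called 0 of the 9 in both.

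Set directly against each other at 15 min, the inhibitors differed in SMAD7. Its level was 59.2 CPM on average with GSK591 and 37.0 CPM with MS023, a log2 fold change of 0.68 ± 0.11 (SE), or 1.61-fold (edgeR adjusted p = 0.00048). It was the only one of the 9 genes called, where 1.09% of all genes were. Without replicate 1 of MS023 15 min the value was 0.62 and the call was lost (adjusted p = 0.19), and it was lost too with library sizes unscaled (value range over 11 alternatives 0.58 to 0.74). The MS023 15 min libraries had lower mitochondrial shares (44.5% and 39.8%) than the GSK591 ones (48.6% and 46.9%), and the part of this in the result was not tested.

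Dex given with MS023 raised SMAD7 over MS023 alone, from 37.0 to 56.2 CPM, by 0.61 ± 0.11 on the log2 scale (1.52-fold, edgeR adjusted p = 0.00018). SMAD7 was 1 of 9 called there, against 8.97% of all genes. With library sizes unscaled the value was 0.42 and not called (adjusted p = 0.071), a setting that moved the median of all genes by -0.19. Dex given with GSK591 left SMAD7 at 47.7 CPM against 59.2 CPM with GSK591 alone, a log2 fold change of -0.31 (-0.53 to -0.09) that missed the threshold (adjusted p = 0.11). The difference between these Dex effects was tested itself and was -0.92 ± 0.16 (edgeR adjusted p = 0.00085, rank 19 of 21910 genes by p); SMAD7 was again the 1 gene of 9 called, against 1.15% of all genes. This call was lost without replicate 1 of MS023 15 min (value -0.86, adjusted p = 0.052) and held in the other 14 alternatives. The 2 Dex groups themselves did not differ past the threshold in any of the 9 genes or in any gene at all (0% called by edgeR, with 1659 genes at an unadjusted p under 0.05, and 0 called by DESeq2), in a comparison added after the values were seen. For SMAD7 the 2 Dex groups stood at 47.7 and 56.2 CPM (log2 -0.235, interval -0.46 to -0.01, not called). The difference of its Dex effects thus includes the 15 min difference between the inhibitors (0.68) and is not separate from it.

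After 3 h with MS023, SMAD7 was 1.49 times its untreated level (log2 0.58 ± 0.11, edgeR adjusted p = 0.00015) and 1.88 times its level at 15 min of MS023 (log2 0.91 ± 0.11, adjusted p = 8.2e-08). Both calls held under all 11 alternatives, with values from 0.51 to 0.65 and from 0.76 to 1.02. It was the 1 gene of 9 called in the first, against 7.63% of all genes, and 1 of 3 called in the second, against 12% of all genes. After 3 h with GSK591, SMAD7 was above untreated cells by 0.32 ± 0.11 (adjusted p = 0.046, 1 gene of 9 called against 11% of all genes). That call was lost in 6 of 11 alternatives: DESeq2, no filter, nuclear library size, and without untreated replicate 1 (0.29), untreated replicate 2 (0.35) or GSK591 3 h replicate 2 (0.17, adjusted p = 0.55). Between 15 min and 3 h of GSK591 SMAD7 did not differ past the threshold (log2 -0.04, interval -0.25 to 0.18). The difference of the time effects between the inhibitors, a test added after the values were seen, was -0.95 ± 0.15 (edgeR adjusted p = 0.0012, rank 4 of 21910). It was lost with library sizes unscaled and without replicate 1 of MS023 15 min (-0.88). This difference too includes the 15 min difference between the inhibitors. At 3 h the inhibitors differed in SMAD7 by -0.26 (interval -0.47 to -0.05, not called).

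SMAD6, the inhibitory SMAD aimed mainly at BMP receptors, fell with GSK591 and Dex and rose between 15 min and 3 h of MS023. SMAD6 (ENSG00000137834.14) lies on the plus strand of GRCh38 chromosome 15, from 66702228 to 66782848; SMAD3 lies downstream of it on the same strand. It was at 239 and 259 CPM in untreated cells, 253 and 266.5 CPM with GSK591 at 15 min and 208 and 229.5 CPM with MS023 at 15 min. With Dex it was at 190 and 197 CPM beside GSK591, the lowest pair of the series, and at 208 and 235 CPM beside MS023. At 3 h it was at 201 and 222 CPM with GSK591 and at 281 and 291 CPM with MS023, the highest pair. Its single RefSeq start is shown because the window ends in the full palindrome GTCTAGAC, found in 64 of 35116 windows, 12 bases before the start.
SMAD6, chr15:66701986-66702235, plus strand: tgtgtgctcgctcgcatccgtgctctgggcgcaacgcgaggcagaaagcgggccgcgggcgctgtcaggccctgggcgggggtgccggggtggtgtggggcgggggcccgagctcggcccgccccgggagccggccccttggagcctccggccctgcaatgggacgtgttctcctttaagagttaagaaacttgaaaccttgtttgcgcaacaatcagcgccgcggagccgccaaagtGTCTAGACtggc

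Dex with GSK591 lowered SMAD6 from 259.8 to 193 CPM against GSK591 alone (log2 -0.43 ± 0.10, edgeR adjusted p = 0.009), and it was 1 of 9 genes called where 3.7% of all genes were. Against untreated cells the fall was -0.37 ± 0.10 (adjusted p = 0.022), again 1 of 9, against 5.85% of all genes. This second call was lost without any one of the 4 libraries (values -0.43 and -0.31 without untreated replicates 1 and 2, and -0.35 and -0.38 without replicates 1 and 2 of GSK591 with Dex), and the first without replicate 2 of GSK591 15 min (-0.39, adjusted p = 0.1). Both were also lost when the spread was estimated from the compared groups alone. Mitochondrial shares were 48.2% and 58% in the GSK591 with Dex libraries, and the part of this in the result was not tested. Beside MS023 the Dex value of SMAD6 was 0.02 (interval -0.19 to 0.22), and the difference of the Dex effects, -0.44 ± 0.14, was not called (edgeR adjusted p = 0.14).

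From 15 min to 3 h of MS023 SMAD6 rose from 218.8 to 285.8 CPM (log2 0.39 ± 0.10, edgeR adjusted p = 0.0073). The call was lost with library sizes unscaled (0.23, adjusted p = 0.3), where the median of all genes moved by -0.16, and without replicate 1 of MS023 15 min (0.32, adjusted p = 0.15). With GSK591 it stood lower at 3 h than at 15 min, at -0.29 (interval -0.50 to -0.09, not called), and the added test of the difference of the time effects gave -0.68 ± 0.14 (edgeR adjusted p = 0.013). SMAD6 and SMAD7 were the 2 genes of 9 called in that test, against 0.561% of all genes. The SMAD6 call there was lost without replicate 1 of GSK591 15 min (-0.71, adjusted p = 0.056), of MS023 15 min (-0.61, adjusted p = 0.2) or of GSK591 3 h (-0.61, adjusted p = 0.17), and with library sizes unscaled. At 3 h the 2 inhibitors did not overlap in SMAD6, and the direct value was -0.43 ± 0.10 with an unadjusted p of 0.00011; no gene passed the edgeR threshold in that comparison (0% called, 1319 genes at an unadjusted p under 0.05, and 1 gene called by DESeq2), and the adjusted p of SMAD6 was 0.17.

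**Figure D2:**
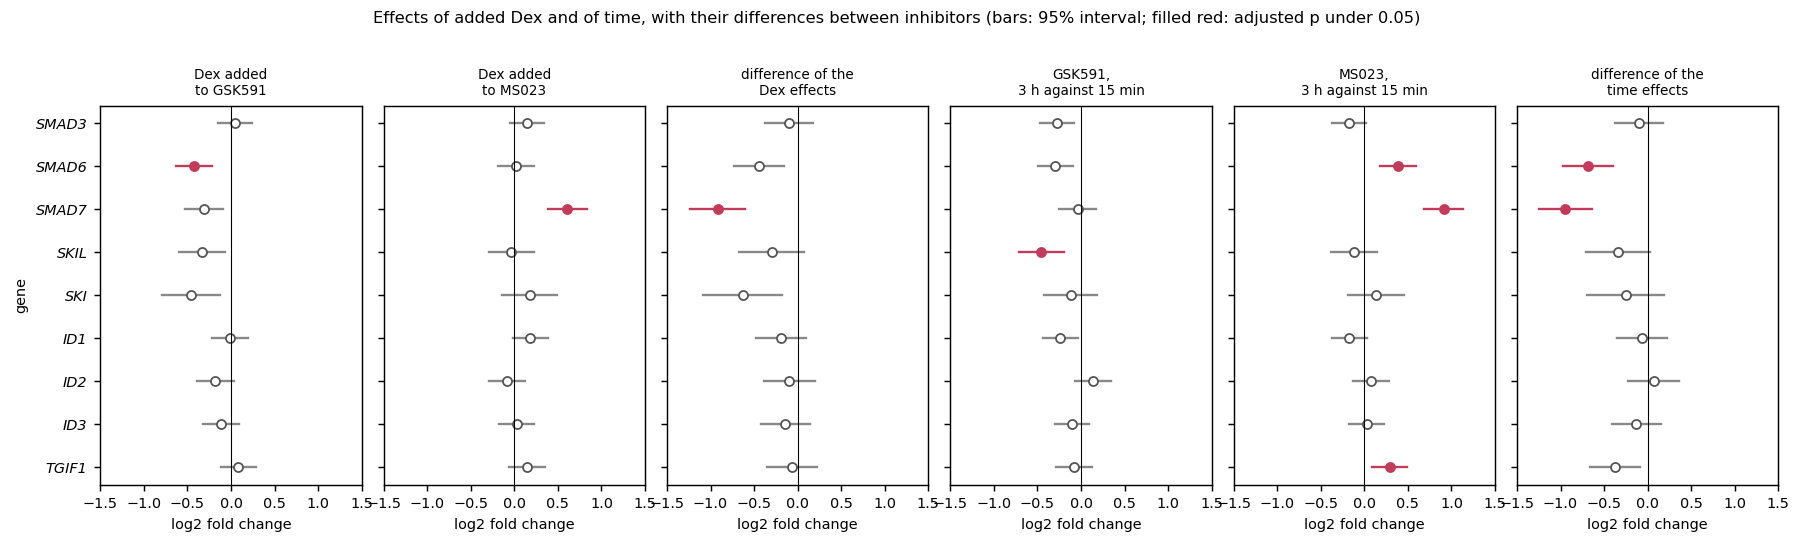
Log2 fold changes of the 9 genes when Dex is added to each inhibitor and between 15 min and 3 h of each inhibitor, with the difference of both effects (GSK591 minus MS023); points are edgeR estimates, bars 95% intervals, and filled red points have an adjusted p under 0.05. SMAD7 has the largest differences, at -0.92 for Dex and -0.95 for time, and SMAD6 passes the threshold for time at -0.68.

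SKIL and SKI encode the paired co-repressors that hold SMAD complexes silent. SKIL (ENSG00000136603.13, chromosome 3, 170357678 to 170396835, plus strand) was at 34.1 and 34.4 CPM in untreated cells, 35.9 and 37.3 CPM with GSK591 at 15 min and 28.6 and 24.7 CPM with GSK591 at 3 h, so that both 3 h libraries lay below the other 4. The fall from 15 min to 3 h of GSK591 was -0.46 ± 0.13 on the log2 scale (edgeR adjusted p = 0.022), and SKIL was the 1 gene of 9 called there, against 6.41% of all genes. The call was lost with DESeq2, with library sizes unscaled, and without GSK591 15 min replicate 1 (-0.48) or replicate 2 (-0.43) or GSK591 3 h replicate 2 (-0.36, adjusted p = 0.26). With MS023, SKIL replicates were far apart: 28.7 and 36.3 CPM at 15 min and 25.5 and 34.4 CPM at 3 h, and the groups overlapped. The window of SKIL is shown for its TGACGTCA, which begins 54 bases before the start; GGCGCC and CAGAC on the opposite strand lie further upstream.
SKIL, chr3:170357465-170357714, plus strand: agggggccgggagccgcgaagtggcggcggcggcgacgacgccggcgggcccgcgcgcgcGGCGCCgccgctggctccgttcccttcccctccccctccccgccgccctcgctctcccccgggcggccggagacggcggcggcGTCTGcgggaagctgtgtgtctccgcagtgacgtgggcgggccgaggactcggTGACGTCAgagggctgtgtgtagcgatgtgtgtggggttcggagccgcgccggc

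SKI (ENSG00000157933.9, chromosome 1, 2228695 to 2310119, plus strand) had the fewest counts and no call in the 13 comparisons. Its level ran from 12.9 CPM (GSK591 with Dex, replicate 2) to 25.2 CPM (GSK591 15 min, replicate 1) with a median of 20.3 CPM. Dex with GSK591 gave 19.4 and 12.9 CPM against 25.2 and 19.3 CPM with GSK591 alone, so the pairs overlapped (log2 -0.46, interval -0.79 to -0.13, edgeR adjusted p = 0.12). Without replicate 1 of GSK591 with Dex this value was -0.80 and called (adjusted p = 0.014), as was the difference of the Dex effects (-0.98, adjusted p = 0.022), both then resting on the single library left.

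TGIF1, a homeodomain co-repressor (ENSG00000177426.20, chromosome 18, 3411608 to 3459978, plus strand), rose from 15 min to 3 h of MS023. Its libraries were at 272 and 285 CPM at 15 min and at 324.5 and 358 CPM at 3 h, a log2 fold change of 0.29 ± 0.10 (edgeR adjusted p = 0.049), which completes the 3 of 9 genes called in that comparison. Untreated libraries lay between, at 319.5 and 322 CPM. The call was lost in 7 of 11 alternatives, including each one-library omission (values 0.24 to 0.36 without replicates 1 and 2 of MS023 15 min or of MS023 3 h) and unscaled library sizes (0.14). At 3 h TGIF1 stood at 267 and 279.9 CPM with GSK591, below both MS023 libraries, at -0.32 ± 0.10 (not called, adjusted p = 0.56).

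SMAD3, the receptor-activated transducer of the TGF-beta branch, was called in none of the 13 comparisons. SMAD3 (ENSG00000166949.15, chromosome 15, 67063763 to 67195195, plus strand) was at 166 and 172 CPM in untreated cells. Its level was 178.7 and 202.5 CPM with GSK591 and Dex, 198 and 187 CPM with MS023 and Dex, 151 and 154.5 CPM with GSK591 at 3 h and 161 and 148.5 CPM with MS023 at 3 h. The 4 Dex libraries thus lay above, and the 4 libraries at 3 h below, both untreated ones. Without Dex, both GSK591 15 min libraries also lay above them (178.7 and 190 CPM), and MS023 15 min was at 171 and 178 CPM. Dex added to GSK591 gave SMAD3 a log2 fold change of 0.05 (interval -0.15 to 0.24). Dex added to MS023 gave 0.14 (interval -0.05 to 0.34), and neither was called. The smallest edgeR adjusted p of SMAD3 was 0.083, for 3 h against 15 min of GSK591 (log2 -0.27, interval -0.47 to -0.08). An antisense gene, AC087482.1, shares 182 exon bases with SMAD3 and held 205 to 359 counts per library; the strand setting of the counting is not given in the sources used here, so these reads cannot be told apart.

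The 3 ID genes, whose small proteins sequester E proteins, were also called nowhere in the main fit. ID1 (ENSG00000125968.8, chromosome 20, 31605283 to 31606515, plus strand) is a gene whose whole span is exonic. It was at 294 and 299 CPM in untreated cells, 327 and 345 CPM with MS023 and Dex, 245 and 265 CPM with GSK591 at 3 h and 270.4 and 255 CPM with MS023 at 3 h. All 4 libraries at 3 h were below the other 10, yet the smallest edgeR adjusted p over its comparisons was 0.17 in the main fit. At 3 h of GSK591 against untreated cells ID1 was called lower with nuclear library sizes (-0.33, edgeR adjusted p = 0.026). It was also called lower there with only the compared groups fitted (-0.225, edgeR adjusted p = 0.04). The lowest level of ID2 (ENSG00000115738.9, chromosome 2, 8678845 to 8684453, plus strand) was 103 CPM (GSK591 with Dex, replicate 2), its median 124 CPM and its highest 147 CPM (GSK591 3 h, replicate 1). Its untreated pair, at 135 and 111 CPM, spanned much of that range. With nuclear library sizes ID2 was called lower with GSK591 and Dex than in untreated cells (-0.335, edgeR adjusted p = 0.036). In ID2, 38 exon bases are shared with the antisense gene ID2-AS1 (109 to 221 counts), with the same limit as for SMAD3. ID3 (ENSG00000117318.8, chromosome 1, 23557918 to 23559794, minus strand) ran from 213 to 250.1 CPM with a median of 234 CPM, and its highest group mean was 1.08 times its lowest. Over the 13 comparisons every 95% interval of ID3 lay within -0.43 to 0.25 on the log2 scale, and every one of ID2 within -0.39 to 0.34. These intervals leave room for changes up to those bounds, which this depth and 2 libraries a group could not resolve.

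The windows of ID1 and ID3 are printed beside those of SMAD6 and SMAD7 as genes of the same pathways without a call in the main fit. ID1 has TATAAA on both strands in the run TTTATAAA, which begins 33 bases before the start, and ID3 has CAGAC at 147 bases.
ID1, chr20:31605039-31605288, plus strand: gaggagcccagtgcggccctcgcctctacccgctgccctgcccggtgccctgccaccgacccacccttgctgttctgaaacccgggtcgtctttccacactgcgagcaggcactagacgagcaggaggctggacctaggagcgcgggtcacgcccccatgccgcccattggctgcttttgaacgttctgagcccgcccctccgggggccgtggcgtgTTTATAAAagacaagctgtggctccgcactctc
ID3, chr1:23559502-23559751, minus strand: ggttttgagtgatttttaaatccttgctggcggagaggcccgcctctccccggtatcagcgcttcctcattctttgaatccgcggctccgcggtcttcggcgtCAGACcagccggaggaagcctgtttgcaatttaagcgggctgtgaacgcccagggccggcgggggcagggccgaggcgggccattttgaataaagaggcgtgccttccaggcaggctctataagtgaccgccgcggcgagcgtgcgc
CAGAC was thus present in windows of genes with and without calls. RefSeq windows were matched for 8 of the 9 genes, with 20 starts in all.

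**Figure D3:**
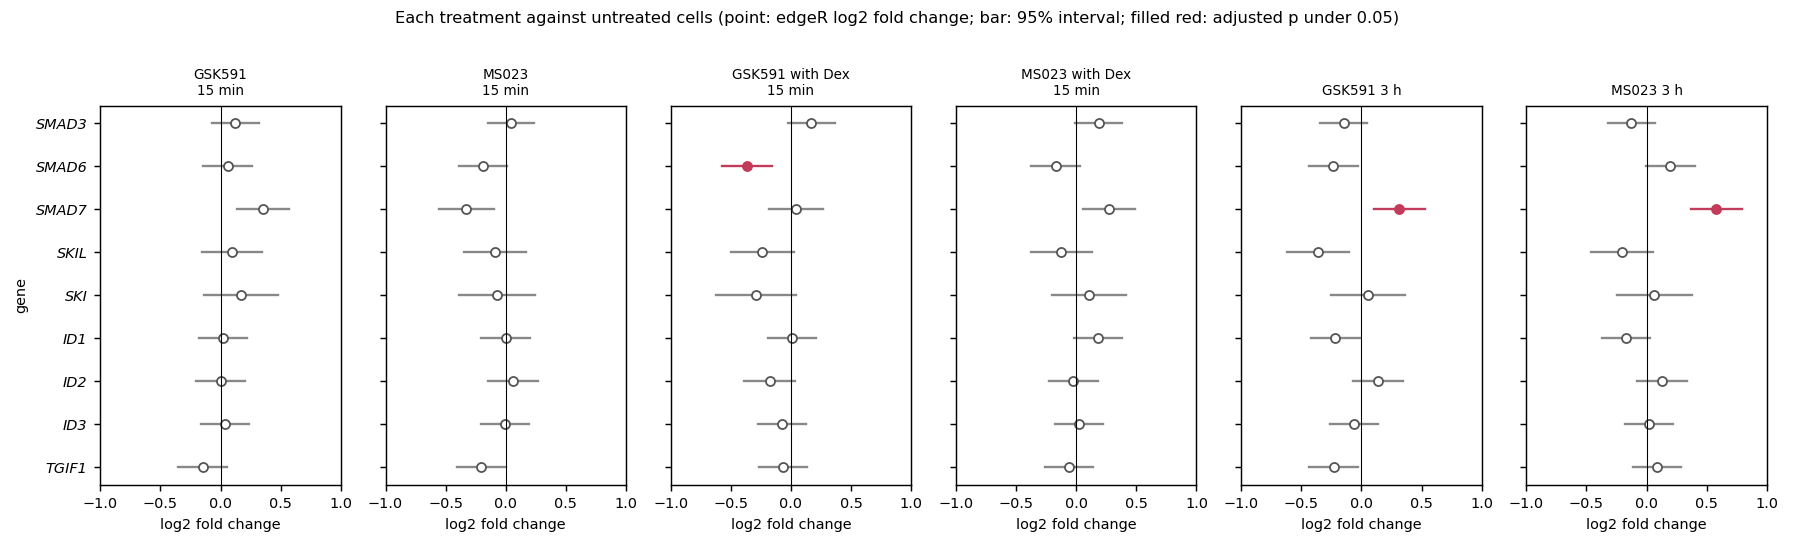
Log2 fold changes of the 9 genes in the 6 treated groups against untreated cells, whose 2 libraries all 6 comparisons share; points are edgeR estimates, bars 95% intervals, and filled red points have an adjusted p under 0.05. The 3 called values are SMAD6 with GSK591 and Dex (-0.37) and SMAD7 at 3 h with GSK591 (0.32) and MS023 (0.58).

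Read by group, the 9 genes gave few calls against untreated cells: 0 and 0 at 15 min, 1 (SMAD6, lower) with GSK591 and Dex, 0 with MS023 and Dex (7.66% of all genes called), and 1 each (SMAD7, higher) at 3 h. These comparisons share the untreated libraries. The median log2 fold change of the 9 genes was -0.15 at 3 h of GSK591 and 0.06 at 3 h of MS023, where the median of all genes was -0.01 in both. In the authors' deposited table, which compares each treated group with untreated cells by DESeq2, none of the 54 values of these genes had an adjusted p under 0.05. The smallest adjusted p in the authors' deposited table was 0.057, for SMAD7 at 3 h of MS023 (log2 fold change 0.56, SE 0.18). The authors' deposited table gave SMAD6 with GSK591 and Dex a log2 fold change of -0.43 (SE 0.13, adjusted p = 0.059). The 54 log2 fold changes in the authors' deposited table lay a median of 0.002 (largest difference 0.01) from the edgeR values fitted without untreated replicate 1, against 0.033 (largest 0.15) from those with all libraries and 0.06 (largest 0.275) from those without untreated replicate 2. Which libraries entered the authors' deposited table is not given in the sources used here.

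Other genes of the pathway were read from a list of 57 ligands, receptors, transducers, negative regulators, targets and E proteins, of which 52 were tested. The list was chosen with earlier results of these data known, so its shares called are a description and not a test. At 15 min of either inhibitor alone 0 of 52 were called. At 3 h, 12 were higher and 8 lower with GSK591 (38.5% of the list, against 11% of all genes) and 14 were higher and 6 lower with MS023 (38.5%, against 7.63%). The median log2 fold change over the list was 0 with GSK591 and 0.06 with MS023, close to -0.01 over all genes. Leaving out a library gave 11 to 16 called genes with GSK591 (11 without GSK591 3 h replicate 2) and 7 to 14 with MS023 (7 without MS023 3 h replicate 1), and DESeq2 called 14 and 12. With nuclear library sizes the split was 7 higher and 8 lower for GSK591, and with library sizes unscaled it was 12 higher and 5 lower.

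By role, 5 of 10 tested negative regulators were higher and 2 lower at 3 h of GSK591, and 6 were higher and 2 lower at 3 h of MS023. SMURF2, a ubiquitin ligase that SMAD7 brings to the receptors, had an untreated level of 16.5 ± 0.94 CPM (SD) and rose to 43.7 ± 5.3 CPM with GSK591 (log2 1.40 ± 0.16 SE, edgeR adjusted p = 2e-08). With MS023 it rose to 50.6 ± 3.9 CPM (1.61 ± 0.16, adjusted p = 7.7e-10). BAMBI, a decoy receptor, rose from 25.6 ± 0.32 to 42.7 ± 0.74 CPM at 3 h of GSK591 (0.74 ± 0.14, adjusted p = 0.00016), and the activin receptor gene ACVR2B from 16.2 ± 0.95 to 25.1 ± 0.18 CPM at 3 h of MS023 (0.63 ± 0.13, adjusted p = 0.0011). GREM1, a secreted BMP antagonist, fell from 32.7 ± 3.8 to 20.4 ± 3.1 CPM at 3 h of GSK591 (-0.68 ± 0.13, edgeR adjusted p = 0.00018). At 3 h the other inhibitor gave calls of the same sign in the main edgeR fit. With MS023 these were BAMBI (37.5 ± 11 CPM, 0.565 ± 0.14, edgeR adjusted p = 0.0058), whose libraries were far apart, and GREM1 (22.7 ± 0.46 CPM, -0.53 ± 0.13, adjusted p = 0.0045). With GSK591 it was ACVR2B (0.60 ± 0.13, adjusted p = 0.0015). Negative regulators thus moved in both directions, with SMURF2 furthest.

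Of 14 tested targets of the pathway, 0 were higher and 4 lower at 3 h of GSK591, and 2 were higher and 3 lower at 3 h of MS023. TGFBI, a secreted matrix protein, had an untreated level of 132.0 ± 2.4 CPM and fell to 86.6 ± 5.9 CPM with GSK591 (log2 -0.61 ± 0.09, edgeR adjusted p = 6.5e-06) and to 85.7 ± 0.57 CPM with MS023 (-0.62 ± 0.09, adjusted p = 6.1e-06). KLF10, an early TGF-beta response factor, fell from 39.5 ± 2.7 to 27.0 ± 4.1 CPM with MS023 (-0.56 ± 0.12, edgeR adjusted p = 0.0021). That call was lost without untreated replicate 2 (-0.47) or MS023 3 h replicate 1 (-0.40). With GSK591 KLF10 fell to 25.9 ± 0.33 CPM (-0.605 ± 0.12, edgeR adjusted p = 0.00056). CDKN1A, the cell cycle inhibitor p21, rose from 20.95 ± 1.2 to 32.6 ± 4.7 CPM with MS023 (0.64 ± 0.14, adjusted p = 0.0022), lost without untreated replicate 1 (0.60, adjusted p = 0.057) or MS023 3 h replicate 1 (0.48, adjusted p = 0.14).

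With Dex, 7 listed genes were higher and 3 lower than in untreated cells beside GSK591 (19.2% of the list, 5.85% of all genes), and 11 were higher and 3 lower beside MS023 (26.9%, 7.66% of all genes). With nuclear library sizes these splits were 4 higher and 5 lower, and 7 higher and 4 lower; with library sizes unscaled the GSK591 split was 4 higher and 3 lower. CCN2, a matricellular target, rose from 11.6 ± 0.62 to 22.6 ± 5.3 CPM beside GSK591 (log2 0.95 ± 0.16, edgeR adjusted p = 0.00014). Beside MS023 CCN2 rose to 22.0 ± 3.6 CPM (0.92 ± 0.16, edgeR adjusted p = 8.3e-05). TGFBI fell to 80.9 ± 0.54 and 79.8 ± 1.6 CPM. SMURF2, BAMBI and KLF10, described above at 3 h, were also called with Dex at 15 min. Beside GSK591 and MS023, SMURF2 was higher by 0.84 ± 0.17 and 1.17 ± 0.16, and BAMBI by 0.75 ± 0.14 and 0.84 ± 0.135. KLF10 stood at -0.64 ± 0.13 and -0.42 ± 0.12. Its call beside MS023 was lost with DESeq2, with library sizes unscaled and without any one of the 4 libraries. Set against the same inhibitor alone, 17 of 52 were higher and 1 lower when Dex was added to MS023 (8.97% of all genes called), and 5 were higher and 4 lower when it was added to GSK591 (3.7% of all genes). These counts were 10 to 14 in all without 1 library for MS023 and 5 to 7 for GSK591, and with library sizes unscaled the splits were 7 higher and 2 lower for MS023 and 2 higher and 6 lower for GSK591 (4 higher and 6 lower with nuclear library sizes). The Dex effects themselves differed past the threshold in 2 listed genes, TCF12 (-0.71 ± 0.16, edgeR adjusted p = 0.017) and SMURF2 (-0.99 ± 0.24, adjusted p = 0.026), both with a lower Dex effect beside GSK591 as SMAD7 had. Each was lost with DESeq2, with library sizes unscaled, for SMURF2 with only the compared groups fitted (adjusted p = 0.065), and in several omissions of a library, among them GSK591 15 min replicate 1 (-0.68 for TCF12 and -0.56 for SMURF2), MS023 15 min replicate 1 (-0.63 and -0.93) and MS023 with Dex replicate 2 (-0.70 and -0.79), and for SMURF2 also GSK591 with Dex replicate 2 (-0.82).

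Time within an inhibitor gave 15 listed genes higher and 5 lower from 15 min to 3 h of MS023 (12% of all genes called), and 6 higher and 7 lower for GSK591 (6.41% of all genes). SMURF2 led both, at 1.92 ± 0.17 (edgeR adjusted p = 4e-11) with MS023 and 1.05 ± 0.15 (adjusted p = 1.8e-05) with GSK591. FSTL3, an activin-binding antagonist, rose with MS023 from 84.2 ± 6.6 to 125 ± 16 CPM (0.57 ± 0.10, adjusted p = 7.1e-05). With library sizes unscaled the MS023 split was 6 higher and 5 lower. Without replicate 1 of MS023 15 min the MS023 count was 7, and without replicate 2 of GSK591 15 min the GSK591 count was 4. Between the inhibitors at 15 min, TCF12 (38.2 ± 1.1 with GSK591 against 27.5 ± 2.1 CPM with MS023) and the BMP transducer gene SMAD5 (22.5 ± 1.1 against 15.0 ± 3.4 CPM) were higher with GSK591, at 0.48 ± 0.12 and 0.61 ± 0.16, as SMAD7 was. These 2 calls were lost with DESeq2, for TCF12 without the filter on low counts (adjusted p = 0.062), with library sizes unscaled and without any one of GSK591 15 min replicate 1 (0.45 and 0.56), GSK591 15 min replicate 2 (0.51 and 0.66) or MS023 15 min replicate 1 (0.40 and 0.37).

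**Figure D4:**
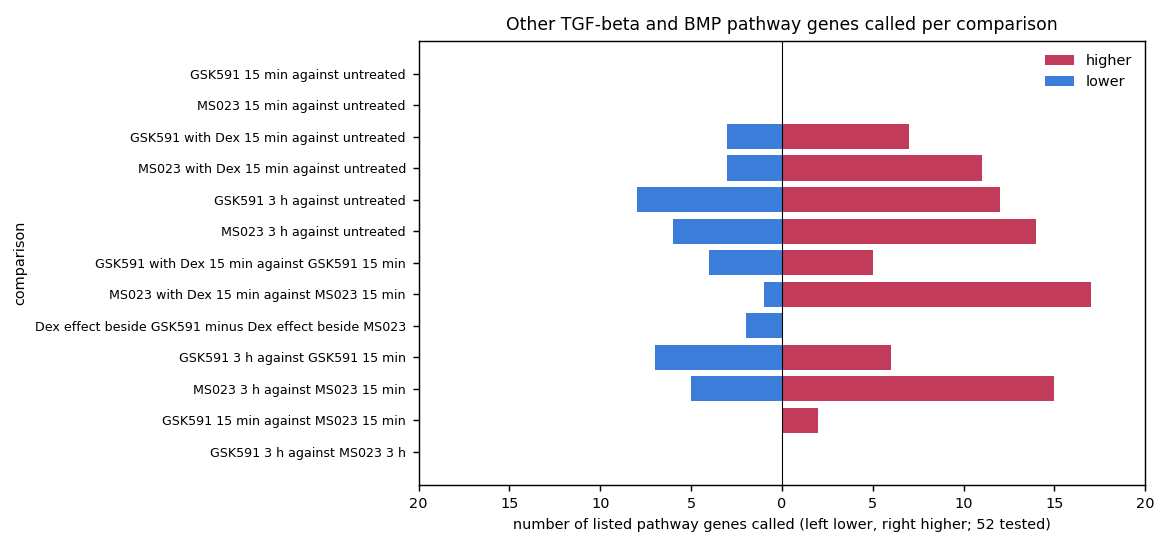
Number of the 52 tested pathway genes other than the 9 called higher (right, red) and lower (left, blue) in each of the 13 planned comparisons by edgeR at an adjusted p under 0.05. Neither inhibitor alone at 15 min has a bar, Dex added to MS023 has 17 higher and 1 lower, and the 3 h groups have 12 higher and 8 lower (GSK591) and 14 higher and 6 lower (MS023) against untreated cells.

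The genes of E proteins, the partners of ID proteins, and the remaining ID gene, ID4, were looked at one by one after values were seen. TCF12 rose over untreated cells with MS023 and Dex (29.6 to 43.8 CPM, log2 0.57 ± 0.11, edgeR adjusted p = 0.00058) and at 3 h of GSK591 (to 44.2 CPM, 0.58 ± 0.11, adjusted p = 0.00032), and both calls held in every alternative run. Its rise at 3 h of MS023 (to 39.2 CPM, 0.40 ± 0.11, adjusted p = 0.019) was lost without any one of the 4 libraries (values 0.49 and 0.35 without untreated replicates 1 and 2, 0.38 and 0.44 without MS023 3 h replicates 1 and 2). That TCF12 call was also lost with library sizes unscaled (adjusted p = 0.1), nuclear library sizes (adjusted p = 0.052) and DESeq2 (adjusted p = 0.085). TCF4 was called in none of the comparisons. TCF3 was called lower with Dex added to GSK591 (-0.49 ± 0.13) and from 15 min to 3 h of GSK591 (-0.48 ± 0.13), and each call was lost without any one of its 4 libraries (-0.55 to -0.42, and -0.53 to -0.44). The Dex call of TCF3 was also lost with DESeq2 (adjusted p = 0.14), without the filter on low counts (adjusted p = 0.053) and with only the compared groups fitted (adjusted p = 0.093). The time call of TCF3 was also lost with library sizes unscaled (-0.42, adjusted p = 0.14) and with DESeq2 (adjusted p = 0.075).

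ID4 was called higher at 3 h of MS023 against untreated cells (19.3 to 25.9 CPM, 0.42 ± 0.13, edgeR adjusted p = 0.043) and against 15 min of MS023 (0.53 ± 0.14, adjusted p = 0.0073), comparisons in which ID1, ID2 and ID3 were not called. The first call was lost without any one of its 4 libraries (values 0.36 to 0.49), and the second without MS023 15 min replicate 1 (0.38) or MS023 3 h replicate 2 (0.48). With library sizes unscaled neither ID4 call remained (0.44, adjusted p = 0.12, and 0.38, adjusted p = 0.14). The call against untreated cells was also lost with nuclear library sizes (0.38, adjusted p = 0.1), with DESeq2 (0.43, adjusted p = 0.19) and without the filter on low counts (0.41, adjusted p = 0.093). Differences between ID4 and the other ID genes were not tested.

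The genes whose level followed SMAD7 most closely over the 7 group means (log2 CPM, over 9983 genes whose mean level reached 10 CPM) were AC005785.1 (Pearson r = 0.979), NUDT17 (r = 0.977) and YWHAZ (r = 0.976). The 7 points share libraries, depth and scaling, so r is only a description. In YWHAZ the range was 155 CPM (MS023 15 min) to 195 CPM (MS023 3 h), and in AC005785.1 it was 27.8 to 48.3 CPM between the same groups, with the lowest and the highest in the groups where SMAD7 was lowest and highest.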

How the data were processed

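PRO-seq counts of 14 A549 libraries were analysed. The submitters' processing notes name Subread, featureCounts 2.0.1, DESeq2 and the hg38 build. The aligner, the feature type counted and the strand setting are not given in the sources used here. The deposited table gives read counts per gene, per the file headers. The deposited comparison tables give a baseMean signal, log2 fold changes with SE, a Wald statistic (a score) and p-values per gene, per the file headers; of these only log2 values and p-values are quoted. Genes were filtered with filterByExpr, which kept 21910 of 58780, scaled by TMM and fitted in 1 edgeR 4.0.16 quasi-likelihood model (R 4.3.3) with 7 groups and 7 residual degrees of freedom. Calls are at a Benjamini-Hochberg adjusted p under 0.05 over all genes tested; intervals are 95%. The alternatives were DESeq2 size factors, library sizes unscaled ("library size alone") or without mitochondrial genes, DESeq2 1.42.0, no filter, only the compared groups, a replicate block and each library left out. The edgeR and DESeq2 steps were tested on simulated counts. Coordinates are from GENCODE v29 (GRCh38), promoter windows from RefSeq. The labels do not say whether replicate numbers pair libraries, and the main fit used no pairing. Over 21 pairs of groups the deviations of replicates correlated at -0.07 to 0.09 across genes, which cannot settle the question. The 9 genes are all described. Listed pathway genes are named where called, up to 3 with the smallest p in each direction, and E proteins and ID4 in addition. Some named genes are also given for the other inhibitor. One listed target gene is not reported here by name, though it stays in the counts. The genes and lists were chosen with earlier results of these data known.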

Additional observations from a re-analysis of the deposited data

Results flagged for a closer look

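The effect of added Dex on SMAD7 differed between the inhibitors by -0.917 on the log2 scale (GSK591 minus MS023) in a test of the difference itself. In the same test TCF12 differed by -0.71 and SMURF2 by -0.992. The change of SMAD7 from 15 min to 3 h differed between the inhibitors by -0.946, and that of SMAD6 by -0.68. All 5 values have the GSK591 15 min and the MS023 15 min libraries in common, so they share the 15 min difference between the inhibitors. They are thus not separate results. For SMAD7 that difference was 0.68, while the Dex groups differed by -0.235 and the 3 h groups by -0.26, neither called. Replicate 1 of MS023 15 min is a library whose omission ended each call.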

How the results depend on the processing

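Of 1557 values of the 9 genes under an alternative, 1500 kept their side of the threshold, 37 lost a call, 20 gained one and 0 called values changed sign; 115 values called in neither fit changed sign. Of the 13 called values, those of SMAD7 at 3 h of MS023, against untreated cells and against 15 min, were called in each alternative run. The number of the 9 genes called moved by more than 1.5 times as follows. Percentages in the next 3 sentences are main-fit shares of all genes called. With library sizes unscaled it was 4 for Dex added to GSK591 (3.7%), where the median of all genes moved by -0.21. It was 0 for Dex added to MS023 (8.97%), 0 for 3 h against 15 min of GSK591 (6.41%) and 1 for the same with MS023 (12%). Between the inhibitors at 15 min it was 0 (1.09%), and for the difference of the time effects 0 (0.561%). With nuclear library sizes it was 1 for MS023 15 min, 2 for GSK591 with Dex and 4 for GSK591 3 h, each against untreated cells, and 2 for the difference of the Dex effects. The share of all genes called was higher there too, above its main-fit 0.183% for MS023 15 min and 5.85% for GSK591 with Dex. With only the compared groups fitted, comparisons with untreated cells gave 1 of the 9 genes at 15 min of GSK591, 5 at 3 h of GSK591, 0 when Dex joined GSK591 and 1 when it joined MS023, and Dex added to GSK591 gave 0. In that fit the all-gene share rose above its main-fit 0.306% for GSK591 15 min and 7.66% for MS023 with Dex. For GSK591 with Dex it fell below its main-fit 5.85%. Such counts of the 9 genes therefore do not by themselves show a change particular to these genes. DESeq2 gave 0 for GSK591 3 h against untreated cells and 0 against 15 min. Without the filter it was 0 for GSK591 3 h against untreated cells and 1 between the inhibitors at 3 h (SMAD6, -0.43, adjusted p = 0.02). For 3 h against 15 min of MS023 it was 2 in place of 3 without the filter and with only the compared groups fitted, where TGIF1 lost its call (adjusted p = 0.07 in both). The replicate block gave 2 for 3 h against 15 min of GSK591, adding SMAD6 (-0.295, edgeR adjusted p = 0.041). It changed no other call of the 9 genes. Whether replicate numbers pair libraries is not given by the labels.

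Leaving out a library gave 0 to 0 for GSK591 with Dex against untreated cells, 0 to 1 for GSK591 3 h against untreated cells, 0 to 2 for Dex added to GSK591, 0 to 2 for the difference of the Dex effects, 0 to 1 for 3 h against 15 min of GSK591, 1 to 2 for the same with MS023, 0 to 1 between the inhibitors at 15 min and 0 to 2 for the difference of the time effects. A lone library left in a group was assumed to vary like the other groups. The causes of these changes were not tested, beyond the smaller number of libraries in each omission. Called pathway genes under the naming rule gave 646 such values, of which 95 lost the call and 0 changed sign. Over all alternatives the number of listed genes called against untreated cells ran from 6 to 11 (GSK591 with Dex, 10 as reported), 7 to 16 (MS023 with Dex, 14), 11 to 20 (GSK591 3 h, 20) and 7 to 20 (MS023 3 h, 20). It ran from 5 to 11 for Dex added to GSK591 (9 as reported), 9 to 21 for Dex added to MS023 (18), 4 to 13 for GSK591 over time (13), 7 to 22 for MS023 over time (20), 0 to 7 for the difference of the Dex effects (2) and 0 to 3 between the inhibitors at 15 min (2). The 9 genes had 84 to 3019 counts per library, and SKI, with the fewest, had the widest intervals.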
